A study of Homo sapiens with 36 samples.

Results

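MOLM-13 is a human cell line grown from an acute myeloid leukaemia, and the data described here are its RNA after 72 h with the compound A9 or with the solvent DMSO. The labels call A9 a PROTAC, a molecule that brings a target protein to a ubiquitin ligase so that the protein is degraded. The series' design text names IKK2 and NR4A1 as its targets, while the series' title names IKK1 and NR4A1. The comparison used the 6 MOLM-13 samples out of 12 in the series: 3 treated with DMSO and 3 treated with A9 at 0.125 µM, all of wild-type genotype per the labels and all kept in the same serum-supplemented medium. Each sample was the mean of 3 libraries that carried the same first number in the labels, so the 6 samples stand for 18 of 36 libraries. Nothing in the labels says that the samples came from separate cultures, so p-values measure the spread between these samples, which may be technical. The other 6 samples were MONO-MAC-6 cells, a second acute myeloid leukaemia line, treated with DMSO or with A9 at 0.25 µM for the same time, and they enter at the end.

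IKK1 and IKK2 are the kinases of the complex that frees NF-kB transcription factors from their inhibitors, and NR4A1 is an orphan nuclear receptor that acts as an immediate early transcription factor. In monocytes and their precursors, NF-kB factors drive genes of inflammation and survival. Monocytes and neutrophil precursors are known for large stores of antimicrobial proteins: calprotectin, lysozyme and the serine proteases of primary granules.

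The values were TPM, a transcript's abundance per unit of its length, expressed so that every library has the same sum, and levels of different genes can therefore be compared per length. TPM keep no read counts, so the depth of each library is unknown. Libraries listed 86918 to 96635 transcripts above 0, ribosomal protein genes held 25.0% to 30.6% of TPM, and mitochondrial genes held 4.85% to 5.78%. The largest axis of variation between the 6 samples held 67.6% of the variance and did not separate the treatments, with DMSO sample 1 and A9 sample 3 at its ends. The next axis held 15.3% and separated all A9 samples from all DMSO samples. Across genes, which are not independent replicates, the deviation of a sample from its group mean had a Spearman rho with transcript length of 0.545, -0.0027 and -0.539 in DMSO samples 1, 2 and 3 and of 0.320, 0.488 and -0.505 in A9 samples 1, 2 and 3. All 12 markers of the labelled leukaemia type, among them CD33, FLT3, MPO and SPI1, were expressed above the filter. Of markers of other cells, all erythroid and fibroblast markers stayed under the filter, B cell markers summed to at most 4.004 TPM, megakaryocyte markers to at most 2.57 TPM and epithelial markers to at most 6.17 TPM. Among the epithelial markers KRT18 had 4.33, 4.49 and 4.51 TPM with DMSO and 2.49, 2.51 and 2.25 TPM with A9 (limma adjusted p = 0.0895), while KRT19 was listed at 0 and EPCAM had a mean of at most 0.0233 TPM. In bulk RNA, a change in the share of cells of a type and a change of RNA per cell cannot be told apart.

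Few genes stood clear of this spread between samples, and of those that did 10 of 14 were higher with A9. Differences are given as log2 fold changes on the scale of log2(TPM + 1), which understates changes of low genes, and were tested with limma with Benjamini-Hochberg adjustment over the 11602 genes whose mean reached 1 TPM in either group. At an adjusted p under 0.05, 14 of these genes (0.121%) were called, 10 of them higher with A9 (0.0862%) and 4 lower (0.0345%). With the trend of each sample on GC content removed, the split was 35 higher and 24 lower. Among the 10865 protein-coding genes tested, 13 were called (0.12%), 10 higher (0.092%) and 3 lower (0.0276%). Of these protein-coding genes, 513 (4.72%) were higher and 342 (3.15%) lower at an unadjusted p under 0.05, and the groups did not overlap for 15.2%, with A9 higher for 8.82% and lower for 6.41%. An unadjusted p under 0.05 was found for 542 genes higher with A9 (4.67%) and 373 lower (3.21%). The A9 samples lay wholly above the DMSO samples for 996 genes (8.58%) and wholly below for 745 (6.42%), together 15% of genes. The median log2 fold change of all genes was -0.05, and 38.8% of genes had a value above 0. By size, 17 protein-coding genes had a log2 fold change of at least 1 and 10 had one of at most -1.

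**Figure D1:**
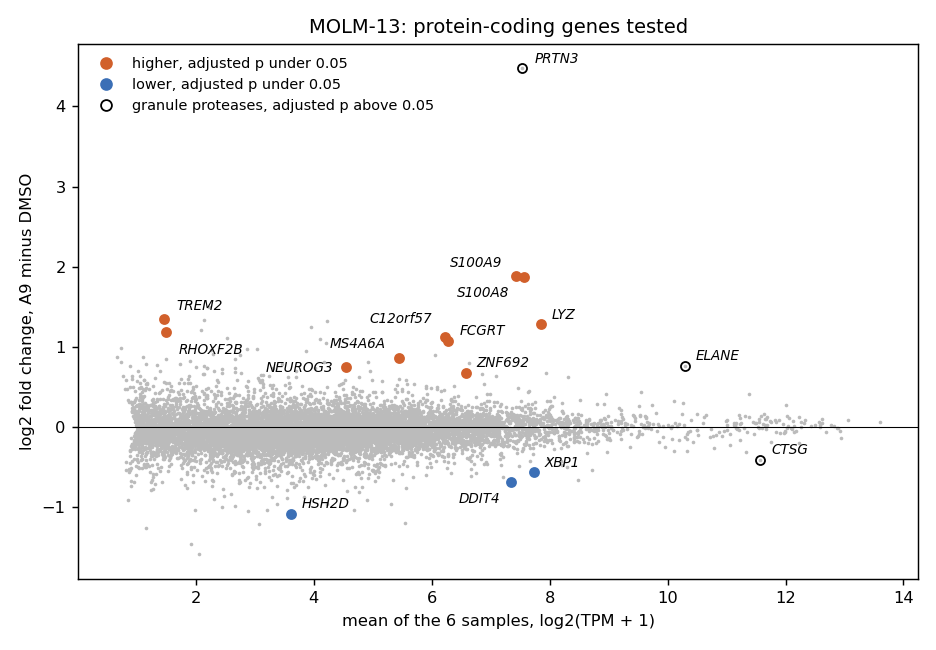
Log2 fold change of A9 minus DMSO in MOLM-13 (vertical axis) against the mean level of the 6 samples as log2(TPM + 1) (horizontal axis), 1 point for each of 10865 protein-coding genes. Filled points mark the 10 genes higher and 3 lower at an adjusted p under 0.05, and open circles mark 3 granule proteases that did not pass, of which PRTN3 had the largest fold change.

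The genes raised most clearly were S100A8 and S100A9, which encode the subunits of calprotectin, a calcium- and zinc-binding complex that makes up much of the cytosolic protein of neutrophils and monocytes. S100A9 (ENSG00000163220, GRCh38 chromosome 1, 153357854 to 153361027, plus strand) stood at 70.0, 71.7 and 75.8 TPM in the DMSO samples and at 255, 263 and 298 TPM in the A9 samples. S100A8 (ENSG00000143546, chromosome 1, 153390032 to 153391188, minus strand) stood at 76.8, 78.8 and 84.9 TPM with DMSO and at 275, 295 and 321 TPM with A9. The means were 72.5 ± 2.97 and 272 ± 22.8 TPM for S100A9 and 80.2 ± 4.23 and 297 ± 22.9 TPM for S100A8 (SD, n = 3). For both genes every A9 sample lay more than 3-fold above every DMSO sample. The log2 fold change was 1.89 (SE 0.077, n = 3 per group, limma adjusted p = 0.000836) for S100A9 and 1.87 (SE 0.077, limma adjusted p = 0.000836) for S100A8. They were the only called genes that stayed under the threshold whichever of the 6 samples was omitted, at adjusted p-values no higher than 0.0213.

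Because these nearby genes moved together, their upstream sequences are shown, taken from the RefSeq promoter table (GRCh38.p14). Each run covers the 250 bases before the start site, 5′ to 3′ on the strand of the gene. The capitals in the third run mark a match to the NF-kB (kappaB) consensus, and the other runs hold no capitals because none of the motifs for the factors named next was matched in full there.
S100A8, chr1:153391189-153391438, minus strand: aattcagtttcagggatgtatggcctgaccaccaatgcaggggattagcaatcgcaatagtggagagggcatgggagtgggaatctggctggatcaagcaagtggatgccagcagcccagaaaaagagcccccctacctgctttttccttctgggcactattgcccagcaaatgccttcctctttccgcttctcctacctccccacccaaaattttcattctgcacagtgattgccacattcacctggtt
S100A9, chr1:153357604-153357853, plus strand: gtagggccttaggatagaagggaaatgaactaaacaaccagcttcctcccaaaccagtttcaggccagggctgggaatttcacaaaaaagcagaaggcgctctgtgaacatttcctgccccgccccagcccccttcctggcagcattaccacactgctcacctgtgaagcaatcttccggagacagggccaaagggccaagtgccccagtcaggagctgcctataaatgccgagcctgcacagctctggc
C12orf57, chr12:6943772-6944021, plus strand: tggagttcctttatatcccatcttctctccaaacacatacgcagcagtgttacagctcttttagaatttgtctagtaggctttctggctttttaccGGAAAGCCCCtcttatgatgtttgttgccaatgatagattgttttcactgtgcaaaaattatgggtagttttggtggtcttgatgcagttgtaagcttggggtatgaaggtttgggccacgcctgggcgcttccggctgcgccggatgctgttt

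Windows from 250 bases before to 50 bases after the start site were found for 11 of the 14 called genes, all but LYZ, HSH2D and TRAC, and were searched on both strands. The NBRE, the site that NR4A receptors bind as monomers (AAAGGTCA), occurred in 0 of the 11 windows and in 1.22% of all 35116 windows of the table. The kappaB consensus occurred in 1 of the 11, that of C12orf57, and in 11.3% of all windows. The match in C12orf57 reads GGAAAGCCCC on the strand shown, begins 154 bases before the start site, and lies inside the gene's extent in GENCODE 29. The C/EBP motif TTGCNNAA occurred in 1 of the 11, with 2 matches in TREM2, and in 10.5% of all windows. The ATF4 composite motif TGATGNAA occurred in 0 of the 11 and in 3.62% of all windows, and the unfolded protein response core ACGTGG in 1 of the 11, again C12orf57, and in 9.72% of all. A match is a run of letters and not evidence of binding, and these motifs overlap in no window shown.

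LYZ, the gene of lysozyme, which cleaves bacterial cell walls, rose as well. LYZ (ENSG00000090382, chromosome 12, 69348341 to 69354234, plus strand) had 138, 141 and 122 TPM with DMSO and 320.2, 343 and 317 TPM with A9, with no overlap between the groups. The log2 fold change was 1.29 (SE 0.076, limma adjusted p = 0.00517). It missed the threshold without A9 sample 1 (adjusted p = 0.0662) and without A9 sample 2 (adjusted p = 0.0501).

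**Figure D2:**
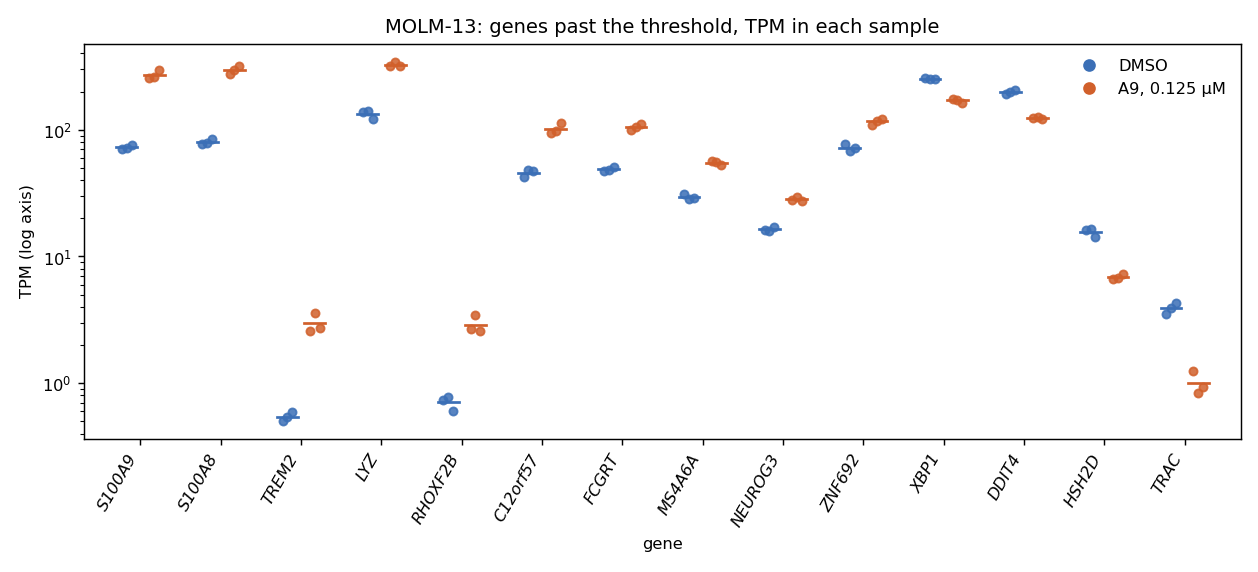
TPM (log axis) of the 14 called genes in each of the 6 MOLM-13 samples, with a bar at the mean of 3 samples per group, DMSO in blue and A9 in orange. The groups do not overlap for any of these genes, and the DMSO levels range from under 1 TPM for TREM2 and RHOXF2B to a mean of 252 TPM for XBP1.

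These 3 genes belong to a list of 30 secretory and granule proteins of monocytes and their precursors, of which 26 passed the filter on low values. In that list 3 genes were called, all higher with A9, and 18 (69.2%) lay wholly above and 3 (11.5%) wholly below the DMSO samples, beside 8.58% and 6.42% of all genes. This list and the lists that follow were chosen with earlier results of these data known. Their shares therefore describe the lists and are no test against those of all genes. The median log2 fold change of the tested members was 0.36, with 23 of 26 above 0. HP, CLU and S100A12 passed the filter only through the A9 samples and so had to differ upward. Of the other 23 tested members, 15 lay wholly above and 3 wholly below, with a median of 0.32. Under removal of the length or GC trend of each sample the median of all 26 was 0.32 and 0.42. CAMP, LCN2, LTF and SERPINA1 stayed under the filter, with means of at most 0.0820 TPM.

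The proteases stored in primary granules did not all go the same way. PRTN3, the gene of proteinase 3, had the largest fold change of the 8389 protein-coding genes that averaged 5 TPM or more. It stood at 3.55, 12.96 and 57.3 TPM with DMSO and at 323, 321 and 388 TPM with A9. All A9 samples lay far above all DMSO samples, but the DMSO samples themselves differed more than 10-fold, and limma gave the log2 fold change of 4.47 an adjusted p of 0.156, above the threshold. The difference lay in the transcript PRTN3-201, which averaged 0.0577, 8.70 and 52.6 TPM in the DMSO samples and 319, 316 and 382 TPM in the A9 samples. PRTN3-202 stayed between 3.49 and 5.94 TPM in all 6 samples. Within DMSO sample 2, the 3 libraries of PRTN3-201 ranged from 0.953 to 12.7 TPM. ELANE, neutrophil elastase, had 791, 927 and 1077 TPM with DMSO and 1589, 1529 and 1608 TPM with A9 (log2 fold change 0.77, limma adjusted p = 0.0876). CTSG, cathepsin G, was on the other side, with 3302, 3454 and 3626 TPM with DMSO and 2488, 2531 and 2818 TPM with A9 (log2 fold change -0.41, limma adjusted p = 0.134). The groups overlapped for MPO and AZU1. Of PRTN3, ELANE and CTSG, CTSG was the most abundant in every sample, and its A9 samples alone lay wholly below its DMSO samples.

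Other secreted proteins of the list lay higher with A9 without passing the threshold. HP, the haemoglobin scavenger haptoglobin, had 0.405, 0.823 and 0.917 TPM with DMSO and 2.51, 3.18 and 3.03 TPM with A9 (log2 fold change 1.20, limma adjusted p = 0.0739). CLU, clusterin, had at most 0.189 TPM with DMSO and 0.703 to 1.36 TPM with A9. PLAC8 had 68.9, 68.9 and 74.7 TPM with DMSO and 128, 106 and 140.0 TPM with A9 (log2 fold change 0.80, limma adjusted p = 0.0803). The S100 genes S100A4, S100A6, S100A10, S100A11 and S100A12 all had A9 samples wholly above the DMSO samples, with log2 fold changes from 0.24 for S100A11 to 0.76 for S100A12. As given above, HP, CLU and S100A12 passed the filter only through the A9 samples and so had to differ upward. Below the DMSO samples lay CTSG, RNASE6, at 6.87, 7.63 and 6.61 TPM against 4.91, 4.94 and 4.45 TPM, and LGALS1, the gene of galectin-1, at a log2 fold change of -0.30 and a limma adjusted p of 0.265.

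**Figure D3:**
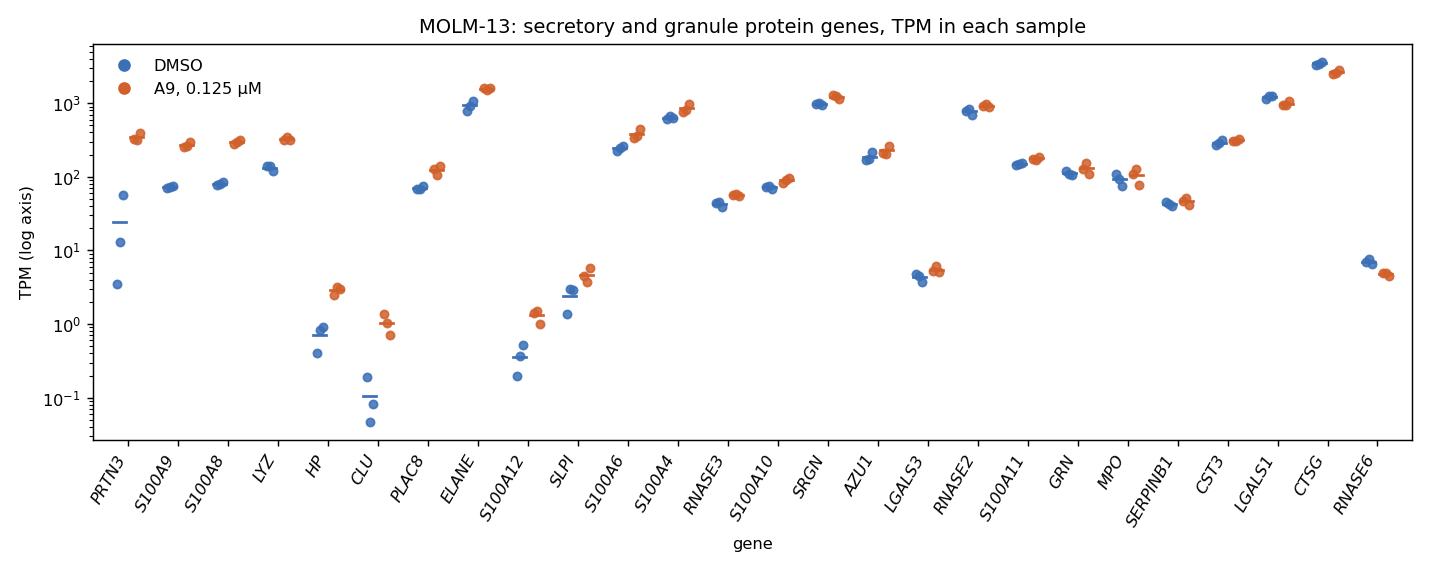
TPM (log axis) of the 26 tested secretory and granule protein genes in each MOLM-13 sample, ordered by log2 fold change, with a bar at the mean of 3 samples per group. PRTN3 at the left has DMSO samples from 3.55 to 57.3 TPM and A9 samples of 321 TPM or more, while CTSG and RNASE6 at the right are lower with A9.

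Among surface and effector genes of monocytes and macrophages, 29 of 45 listed genes were tested and 3 were called, all higher with A9. FCGRT, the heavy chain of the neonatal Fc receptor that recycles IgG and albumin (chromosome 19, 49506816 to 49526333, plus strand), rose from 47.2, 48.5 and 51.1 TPM to 98.8, 104 and 111 TPM (log2 fold change 1.08, SE 0.070, limma adjusted p = 0.0065). MS4A6A, a membrane protein of myeloid cells with membrane-spanning segments like those of CD20 (chromosome 11, 60172014 to 60184666, minus strand), rose from 31.4, 28.5 and 29.1 TPM to 56.9, 55.7 and 52.2 TPM (log2 fold change 0.87, SE 0.075, limma adjusted p = 0.0259). TREM2, a lipid-binding receptor of macrophages and microglia (chromosome 6, 41158506 to 41163186, minus strand), was low, at 0.504, 0.540 and 0.589 TPM with DMSO and 2.60, 3.57 and 2.72 TPM with A9 (log2 fold change 1.35, SE 0.13, limma adjusted p = 0.0358). It passed the filter only through the A9 samples. When each of the 6 samples was omitted in turn, FCGRT passed 2 times, MS4A6A 1 time and TREM2 0 times, and the highest adjusted p-values were 0.120, 0.224 and 0.304.

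The median log2 fold change of these 29 genes was 0.05, and 10 (34.5%) lay wholly above and 2 (6.9%) wholly below the DMSO samples, beside 8.58% and 6.42% of all genes. The share below was thus near that of all genes, and TREM2 and CSF1R among those above passed the filter only through the A9 samples. Of the other 27, 8 lay wholly above and 2 wholly below, with a median of 0.04. CLEC12A, an inhibitory lectin of myeloid cells, had 2.10, 1.12 and 1.27 TPM with DMSO and 4.85, 5.94 and 4.94 TPM with A9 (log2 fold change 1.34, limma adjusted p = 0.0739). MS4A3, a relative of MS4A6A found in granulocyte and monocyte precursors, had 23.6, 19.98 and 19.1 TPM with DMSO and 34.2, 39.4 and 38.3 TPM with A9 (log2 fold change 0.81, limma adjusted p = 0.0794). The 2 genes wholly below were NCF1, a subunit of the phagocyte NADPH oxidase, and CD52. Many markers of mature monocytes and macrophages stayed under the filter in both groups, CD14 at a mean of at most 0.335 TPM, FCN1 at most 0.0985, CD163 at most 0.495 and MRC1 at most 0.00103. These 4 genes were not tested and so could not be called. Of 17 tested myeloid transcription factors, 0 were called with limma, and the median was -0.09. Of these 17, 4 (23.5%) lay wholly above and 2 (11.8%) wholly below the DMSO samples, beside 8.58% and 6.42% of all genes. At an unadjusted p under 0.05, 1 was higher and 1 lower, beside 4.67% and 3.21% of all genes. The higher one was CEBPD, at 21.7, 21.9 and 23.2 TPM with DMSO and 28.4, 32.0 and 32.1 TPM with A9 (log2 fold change 0.45, limma adjusted p = 0.159). CEBPA and SPI1 differed by 0.11 and 0.14 on the log2 scale, with unadjusted limma p-values of 0.0829 and 0.0837.

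The genes that fell had roles in growth control, the secretory pathway and lymphocyte signalling. DDIT4, a stress-induced inhibitor of the growth kinase complex mTORC1 (chromosome 10, 72273920 to 72276036, plus strand), fell from 193, 199.999 and 204 TPM to 124, 127 and 121 TPM (log2 fold change -0.68, SE 0.054, limma adjusted p = 0.0192). XBP1, a transcription factor of the unfolded protein response whose mRNA is itself spliced by the stress sensor IRE1 (chromosome 22, 28794555 to 28800597, minus strand), fell from 254, 251.3 and 250.3 TPM to 176, 173 and 162 TPM (log2 fold change -0.56, SE 0.055, limma adjusted p = 0.0358). HSH2D, an SH2-domain adaptor of blood cells (chromosome 19, 16134028 to 16158575, plus strand), fell from 16.1, 16.4 and 14.3 TPM to 6.58, 6.70 and 7.26 TPM (log2 fold change -1.08, SE 0.105, limma adjusted p = 0.0358). For all 3 genes the A9 samples were close to each other and well below every DMSO sample. When each of the 6 samples was omitted in turn, DDIT4 passed 1 time and the other 2 genes 0 times. The highest adjusted p-values were 0.204 for DDIT4 and 0.304 for HSH2D and XBP1. With median-ratio scaling between samples, DDIT4 and XBP1 missed the threshold, at adjusted p-values of 0.121 and 0.132.

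The only called gene outside the protein-coding class was TRAC, the constant segment of the T cell receptor alpha chain (chromosome 14, 22547506 to 22552154, plus strand), named here after its value was seen. TRAC fell from 3.54, 3.95 and 4.33 TPM to 1.25, 0.840 and 0.934 TPM (log2 fold change -1.30, SE 0.13, limma adjusted p = 0.0358). It passed 0 times when each of the 6 samples was omitted in turn, at adjusted p-values as high as 0.304. Of 10 markers of T and NK cells, 9 stayed under the filter: CD3E and CD2 were listed at 0, and CD3D had a mean of at most 0.289 TPM. The summed level of these 10 markers was 41.3 to 43.3 TPM with DMSO and 58.8 to 65.3 TPM with A9, and nearly all of it was NKG7, a granule membrane protein of cytotoxic cells, which was higher with A9.

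In the pathways around the lowered genes few other members passed a test. The summed level of the unfolded protein response list was lower with A9, with 8 of its 24 genes above 0 in log2 fold change. All 24 of its listed genes were tested, and 1 (XBP1) was called. The median was -0.12 beside -0.05 for all genes, and -0.06 beside -0.0064 with the length trend of each sample removed. The summed level of the 24 was 3514 to 3586 TPM with DMSO and 3061 to 3149 TPM with A9. Of the 24, 5 (20.8%) lay wholly below and 3 (12.5%) wholly above the DMSO samples, beside 6.42% and 8.58% of all genes. At an unadjusted p under 0.05, 3 were lower and 1 higher, beside 3.21% and 4.67% of all genes. Beside XBP1, the lower ones were CALR, the chaperone calreticulin, at 1905, 1936 and 1942 TPM with DMSO and 1559.9, 1612 and 1647 TPM with A9 (log2 fold change -0.26, limma adjusted p = 0.168), and HSPA5, the chaperone BiP, at a log2 fold change of -0.18 and a limma adjusted p of 0.553. The higher one was SEC61B, a subunit of the translocon. CALR had the highest level of the list, and much of the fall of the summed level was its own. Of 22 genes of the integrated stress response and amino acid supply, 1 (DDIT4) was called, and the median was -0.07. Of these 22, 3 (13.6%) lay wholly below and 1 (4.55%) wholly above the DMSO samples, beside 6.42% and 8.58% of all genes. The summed level of the 22 was 1506 to 1614 TPM with DMSO and 1185 to 1441 TPM with A9. NUPR1, a stress-induced chromatin protein of that list, was higher with A9 at 1.75, 1.44 and 2.25 TPM against 0.501, 0.469 and 0.920 TPM (log2 fold change 0.79, limma adjusted p = 0.197), and passed the filter only through those samples. Of 18 tested regulators of mTORC1, 1 (DDIT4) was called and the median was 0.02. SESN1, a further inhibitor of mTORC1 and a p53 target, had 23.6, 21.2 and 19.6 TPM with DMSO and 16.4, 16.97 and 15.04 TPM with A9 (log2 fold change -0.39, limma adjusted p = 0.321).

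Among p53 target genes, 19 of 22 were tested and 0 were called with limma. An unadjusted p under 0.05 was found for 5, all lower with A9: CDKN1A, SESN1, BBC3, FDXR and TIGAR. Over all genes 3.21% were lower and 4.67% higher at that cut. CDKN1A, the cell cycle inhibitor p21, had 112, 110.1 and 102 TPM with DMSO and 80.4, 89.9 and 78.3 TPM with A9 (log2 fold change -0.38, limma adjusted p = 0.174). The median of this list was -0.18, and -0.05 with the length trend of each sample removed.

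The other 4 called genes belonged to none of the gene lists. C12orf57, a small protein linked to brain development (chromosome 12, 6942978 to 6946003, plus strand), rose from 42.3, 47.8 and 47.7 TPM to 93.5, 97.2 and 114 TPM (log2 fold change 1.12, SE 0.097, limma adjusted p = 0.0259). ZNF692, a zinc finger protein (chromosome 1, 248850006 to 248859144, minus strand), rose from 76.5, 68.3 and 72.4 TPM to 109.5, 117 and 122 TPM (log2 fold change 0.68, SE 0.073, limma adjusted p = 0.0499). NEUROG3, a helix-loop-helix factor known from endocrine cells of the pancreas (chromosome 10, 69571698 to 69573238, minus strand), rose from 16.2, 15.9 and 16.98 TPM to 28.0, 29.6 and 27.3 TPM (log2 fold change 0.75, SE 0.082, limma adjusted p = 0.0499). RHOXF2B, a homeobox gene (chromosome X, 120070672 to 120077705, minus strand), rose from 0.732, 0.781 and 0.601 TPM to 2.67, 3.44 and 2.57 TPM (log2 fold change 1.19, SE 0.13, limma adjusted p = 0.0499), and passed the filter only through the A9 samples. RHOXF2B has the close copy RHOXF2, which stayed under the filter at 0.165 to 0.287 TPM with DMSO and 0.570 to 0.872 TPM with A9, so reads may be shared between them. When each of the 6 samples was omitted in turn, C12orf57 passed 1 time and the other 3 passed 0 times, and adjusted p-values reached 0.189 for C12orf57, 0.304 for ZNF692, 0.396 for NEUROG3 and 0.321 for RHOXF2B.

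Beyond the called genes, the naming rule gave 10 protein-coding genes higher and 10 lower with the lowest p among those of at least 5 TPM whose groups did not overlap, and none of these 20 passed the threshold. The higher ones were GAS6, MT1F, MNDA, GLIPR2, ATP6V1F, PLD4, ROGDI, CYSTM1, NKG7 and SPNS3, with log2 fold changes from 0.42 to 1.05 and limma adjusted p-values from 0.0567 to 0.0739. GAS6, the ligand of the receptor kinases AXL and MERTK, had 87.7, 88.1 and 89.4 TPM with DMSO and 138, 155 and 131 TPM with A9. MNDA, a nuclear protein of maturing myeloid cells, had 11.3, 12.2 and 9.75 TPM with DMSO and 22.1, 26.9 and 22.9 TPM with A9. MT1F, a metal-binding metallothionein, had 41.5, 48.3 and 45.6 TPM with DMSO and 75.5, 86.2 and 93.9 TPM with A9. The lower ones were PDLIM1, FSCN1, CSRP3, PCDHGC3, ANXA4, PRR5L, IFI16, KYNU, TGM5 and NCF1, with log2 fold changes from -1.03 to -0.53 and limma adjusted p-values from 0.0547 to 0.102. PDLIM1, a cytoskeletal adaptor, had 503, 496 and 497 TPM with DMSO and 357, 354 and 322 TPM with A9. FSCN1, the actin-bundling protein fascin, had 96.7, 94.8 and 93.2 TPM with DMSO and 65.2, 67.6 and 58.5 TPM with A9. IFI16, a nuclear DNA sensor, had 11.996, 12.4 and 10.5 TPM with DMSO and 5.17, 5.69 and 6.91 TPM with A9. For each of these genes every A9 sample lay on 1 side of every DMSO sample, since the rule required it. NCF1 had 17.6, 16.9 and 19.0 TPM with DMSO and 11.3, 11.7 and 11.997 TPM with A9, and its pseudogene copies NCF1B and NCF1C, which can share its reads, went from means of 6.61 and 6.64 TPM to 4.496 and 3.93 TPM.

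The mRNAs of the named targets were measured to show whether the messages moved, since a degrader acts on protein and protein was not measured. Of 6 genes of the IKK complex and the NR4A family, 5 were tested and 0 were called with limma. An unadjusted p under 0.05 was found for 1 (IKBKG), beside 4.67% of all genes higher and 3.21% lower at that cut. NR4A1 had 4.23, 3.25 and 3.85 TPM with DMSO and 4.20, 3.71 and 2.80 TPM with A9, with overlapping groups. IKBKB, the gene of IKK2, had 54.4, 45.3 and 36.2 TPM with DMSO and 40.2, 48.1 and 26.6 TPM with A9, and CHUK, the gene of IKK1, had 25.3, 21.9 and 20.2 TPM with DMSO and 23.0, 23.5 and 18.4 TPM with A9. Both kinase genes overlapped between the groups. IKBKG, the regulatory subunit, had 16.0, 16.8 and 17.2 TPM with DMSO and 18.5, 19.4 and 21.3 TPM with A9 (log2 fold change 0.23, limma adjusted p = 0.629). NR4A2 had 0.765 to 1.14 TPM with DMSO and 0.869 to 1.16 TPM with A9, and NR4A3 had at most 0.0246 TPM in any sample.

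NF-kB target genes were mostly low in this line. Of 32 listed, 17 were tested, 0 were called with limma, and 5 had an unadjusted p under 0.05, all of them lower with A9. At that cut 3.21% of all genes were lower and 4.67% higher. The log2 fold change was above 0 for 7 of the 17. The summed level of the list overlapped between the groups, at 379 to 398 TPM with DMSO and 351 to 404 TPM with A9. GADD45B, the member with the highest level, had means of 80.5 TPM with DMSO and 80.9 TPM with A9. The median of the tested members was -0.19, beside -0.05 for all genes, and -0.11 with the length trend of each sample removed. TNF, the inflammatory cytokine, had 3.12, 3.32 and 7.18 TPM with DMSO and 0.128, 1.44 and 1.56 TPM with A9 (log2 fold change -1.46, limma adjusted p = 0.340). LTB, the gene of lymphotoxin beta, had 4.88, 3.82 and 6.53 TPM with DMSO and 2.92, 2.44 and 2.49 TPM with A9 (log2 fold change -0.73, limma adjusted p = 0.281). IRF1, an interferon regulatory factor, had 22.8, 20.7 and 21.3 TPM with DMSO and 16.7, 16.0 and 14.4 TPM with A9 (log2 fold change -0.44, limma adjusted p = 0.210). For these 3 genes every A9 sample lay below every DMSO sample. The remaining members with an unadjusted p under 0.05 were CD83 and TNFAIP3, with log2 fold changes of -0.43 and -0.57. NFKBIA, the inhibitor whose gene NF-kB itself induces, lay on the other side, with 22.3, 22.9 and 21.2 TPM with DMSO and 23.1, 25.3 and 25.4 TPM with A9 (log2 fold change 0.15, limma adjusted p = 0.781). IL6, CCL2, CCL3 and CCL4 had means of at most 0.0141 TPM, CXCL1 and CXCL3 were listed at 0, and IL1B had a mean of at most 0.271 TPM. Of 23 tested subunits, inhibitors and regulators of NF-kB, 0 were called with limma, 1 was higher (NFKBIE) and 1 lower (TNFAIP3) at an unadjusted p under 0.05, and the median was -0.10. NFKBIE had 9.30, 9.24 and 9.11 TPM with DMSO and 11.7, 12.4 and 12.02 TPM with A9 (log2 fold change 0.35, limma adjusted p = 0.289).

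**Figure D4:**
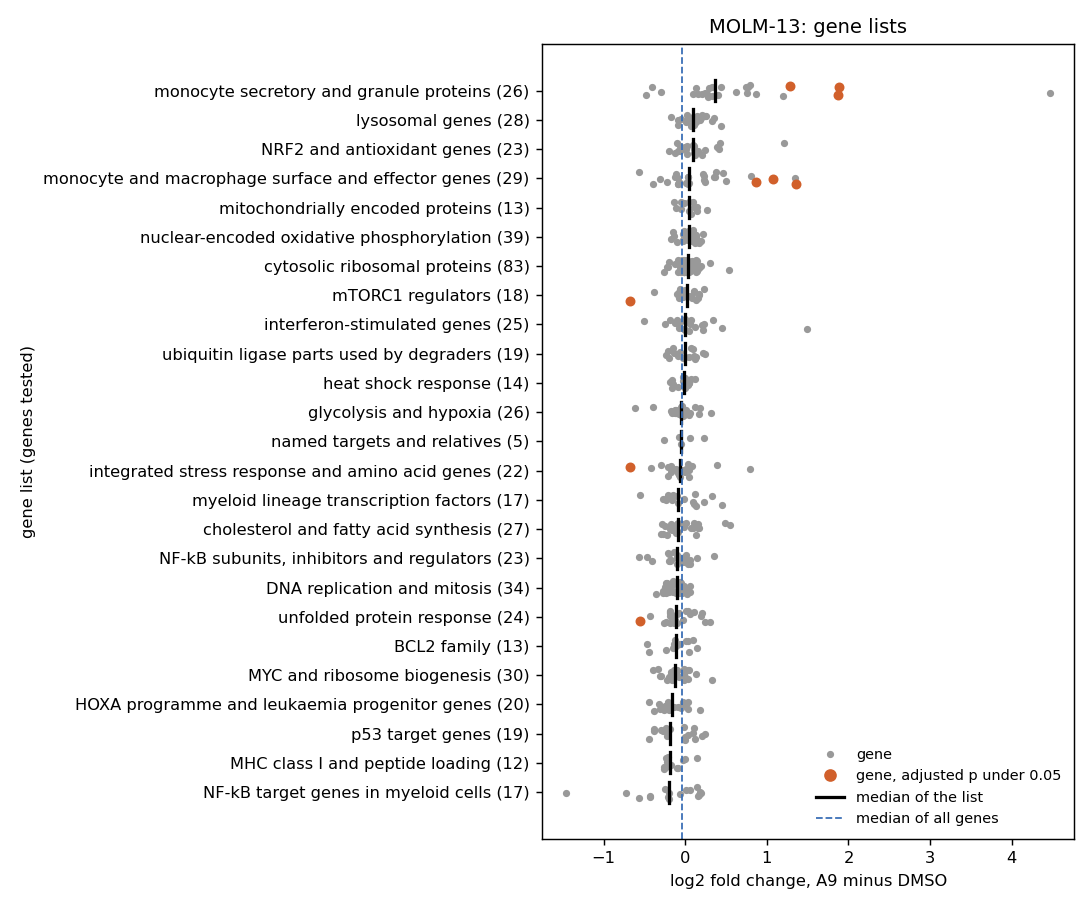
Log2 fold change of A9 minus DMSO of each tested gene in 25 lists with at least 5 tested genes, ordered by the list's median (black bar), with the number of genes tested in parentheses. Orange points are called genes and the dashed line is the median of all genes, -0.05. The secretory and granule proteins have the highest median, 0.36, and the NF-kB targets the lowest, -0.19.

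In the remaining lists 0 genes were called with limma, with between 0 and 6 genes of a list at an unadjusted p under 0.05. Of 23 genes of the NRF2 antioxidant response, 5 had an unadjusted p under 0.05, all higher with A9, and the median was 0.10. At that cut 4.67% of all genes were higher and 3.21% lower. HMOX1, haem oxygenase, had 1.45, 1.60 and 1.57 TPM with DMSO and 5.41, 5.77 and 3.64 TPM with A9 (log2 fold change 1.21, limma adjusted p = 0.0843). FTL, the ferritin light chain, had 2208, 2222 and 2438 TPM with DMSO and 2986, 3026 and 3166 TPM with A9 (log2 fold change 0.42, limma adjusted p = 0.0876), and the others were FTH1, GCLM and TALDO1. Of 28 tested lysosomal genes, 4 had an unadjusted p under 0.05, all higher, again beside 4.67% of all genes. GLA and CTSD had the lowest p, and the median of the list was 0.10. GLA, the enzyme alpha-galactosidase A, had 35.0, 36.2 and 34.4 TPM with DMSO and 49.7, 48.6 and 46.3 TPM with A9 (log2 fold change 0.44, limma adjusted p = 0.0914).

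Of 25 tested interferon-stimulated genes, 5 were higher and 1 lower at an unadjusted p under 0.05, beside 4.67% and 3.21% of all genes. The median of the list was -0.00068. IFITM3, a membrane protein that restricts virus entry, had 1.28, 1.94 and 1.08 TPM with DMSO and 5.11, 5.55 and 6.86 TPM with A9 (log2 fold change 1.497, limma adjusted p = 0.0599), while OAS1 had 2.31, 1.75 and 1.95 TPM with DMSO and 1.20, 1.18 and 0.947 TPM with A9. Of the MHC class I list 12 genes were tested, with 2 lower (CALR and HLA-E) and a median of -0.19. HLA-DRA and HLA-DRB1 of the MHC class II list were listed at 0 in every sample.

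Among lists of proliferation and survival, medians lay below the -0.05 of all genes. At an unadjusted p under 0.05, 4.67% of all genes were higher and 3.21% lower with A9. The 34 genes of DNA replication and mitosis had a median of -0.11, with 2 lower (CCND3 and MCM6) at an unadjusted p under 0.05. Of these 34 genes 5 (14.7%) lay wholly below and 0 wholly above the DMSO samples, beside 6.42% and 8.58% of all genes. Of the genes of MYC and ribosome biogenesis 6 (20%) lay wholly below and 1 (3.33%) wholly above, beside the same 6.42% and 8.58% of all genes. Their summed level was 6175 to 6285 TPM with DMSO and 5490.2 to 5885 TPM with A9. The 30 genes of MYC and ribosome biogenesis had a median of -0.13, the 13 tested BCL2 family members -0.12, and the 20 tested genes of the HOXA programme and leukaemia progenitors -0.17, with FLT3 the only lower one (log2 fold change -0.45, limma adjusted p = 0.588). With the length trend of each sample removed, medians were -0.06 for DNA replication and mitosis and -0.11 for MYC and ribosome biogenesis. They were -0.02 for the BCL2 family and -0.09 for the HOXA programme, beside -0.0064 for all genes. The 39 nuclear-encoded genes of oxidative phosphorylation had a median of 0.04, the 13 mitochondrially encoded ones 0.05, and the 83 tested cytosolic ribosomal protein genes 0.03. At an unadjusted p under 0.05 RPL22L1 was the 1 ribosomal protein gene higher, SLC2A3 and GAPDH were lower among glycolysis genes, and VHL was higher among ubiquitin ligase genes. The medians were -0.05 for glycolysis and hypoxia, -0.09 for cholesterol and fatty acid synthesis, -0.09 for MHC class II presentation with 3 genes tested, -0.02 for heat shock genes and -0.0040 for parts of the ubiquitin ligases that degraders use. The sign of the median turned under at least 1 of the trend removals, median-ratio scaling or the covariate described with the processing for the lists of the named targets and relatives (-0.05, and 0.04 with the length trend removed), NF-kB regulators, myeloid transcription factors, interferon-stimulated genes, oxidative phosphorylation, ribosomal proteins, cholesterol synthesis, glycolysis, heat shock and ubiquitin ligases, all with medians between -0.10 and 0.04.

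Transcripts were tested one by one as well, since sums over a gene can hide its isoforms. Of 40728 transcripts whose mean reached 1 TPM in either group, 4 were called (0.00982%), all higher with A9: S100A9-201, S100A8-202, LYZ-201 and FCGRT-201. With median-ratio scaling 0 were called with limma. They belong to the 4 genes with the lowest adjusted p. S100A8-202 held 97.5% to 98.3% of its gene's TPM in every sample. LYZ-201 rose from 136, 138 and 119 TPM to 315, 338 and 314 TPM (log2 fold change 1.29, limma adjusted p = 0.0317). FCGRT-201 rose from 17.9995, 16.7 and 15.6 TPM to 48.3, 50.4 and 58.0 TPM (log2 fold change 1.58, limma adjusted p = 0.0396), while FCGRT-202, which had a similar level with DMSO, went from 16.4, 18.1 and 21.6 TPM to 27.8, 30.5 and 27.6 TPM (log2 fold change 0.60, limma adjusted p = 0.513). All 3 tested transcripts of DDIT4 and all 4 of C12orf57 lay on the side of their gene, and of 14 tested transcripts of ZNF692, 8 lay wholly above the DMSO samples. The groups did not overlap, in either direction, for 12.6% of all transcripts tested. These genes were called by the sums of the same transcripts, so their counts cannot be set against that share. C12orf57-204, C12orf57-206 and ZNF692-212 also passed the filter only through the A9 samples and so had to differ upward. Of ZNF692 transcripts, many carry a retained intron or are annotated for nonsense-mediated decay, such as ZNF692-227 at 16.5, 14.7 and 14.2 TPM with DMSO and 22.5, 23.8 and 21.0 TPM with A9. Of 5141 tested transcripts without a match in the annotation, 0 were called with limma and 257 (5.0%) had an unadjusted p under 0.05, beside 5.34% of all transcripts.

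The share of a gene's TPM held by each transcript was compared for 31017 transcripts of 6943 genes, and 0 were called with limma, with 1157 at an unadjusted p under 0.05. FCGRT-201 held 38.1%, 34.5% and 30.6% of FCGRT with DMSO and 48.9%, 48.3% and 52.4% with A9, and FCGRT-202 held 34.8%, 37.2% and 42.3% with DMSO and 28.1%, 29.3% and 24.9% with A9. The groups did not overlap for either transcript, beside 10.3% of all shares tested, but neither share passed (limma adjusted p = 0.900 for both). XBP1-201, the main XBP1 transcript, held 89.7%, 90.3% and 92.0% with DMSO and 88.0%, 86.7% and 88.1% with A9. XBP1-202 held 3.85%, 4.24% and 3.09% with DMSO and 6.86%, 8.17% and 6.86% with A9 (limma adjusted p = 0.900). Its level, 9.78, 10.7 and 7.73 TPM with DMSO and 12.1, 14.1 and 11.1 TPM with A9, was higher in every A9 sample, against the direction of the gene's sum (limma adjusted p = 0.881). XBP1-203 and XBP1-204 each held 0.794% to 1.22% in all samples.

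Whether these changes differed in MONO-MAC-6 was asked with an interaction term in 1 fit of 12 samples, where 401 of 13417 genes (2.99%) had an adjusted p under 0.05. The dose also differed, and an effect of the line cannot be told apart from one of the dose. Of the 14 genes called in MOLM-13, 7 differed between the lines and 7 did not pass. These genes were picked by their MOLM-13 values, which enter this fit as well. Such a choice favours a difference between the lines, so 7 of 14 cannot be set against the 2.99%. TREM2 and MS4A6A rose more in MONO-MAC-6, from 2.12 to 19.6 TPM and from 5.04 to 28.0 TPM on average, with differences of 1.37 (limma adjusted p = 0.00113) and 1.40 (limma adjusted p = 0.00153) on the log2 scale. TREM2 had means of only 0.544 and 2.96 TPM in MOLM-13, where log2(TPM + 1) understates its change. The size of its difference thus depends on the pseudocount, which no alternative of this fit changed. S100A9 had the smaller log2 fold change in MONO-MAC-6, 0.95, from means of 2985 TPM with DMSO and 5670 TPM with A9. The difference was -0.94 (limma adjusted p = 0.0296). That difference passed in 3 of 14 alternatives, and missed the threshold when any 1 of the 6 MOLM-13 samples was left out, with adjusted p-values of up to 0.113.

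C12orf57, NEUROG3, RHOXF2B and DDIT4 had log2 fold changes of -0.22, 0.14, -0.27 and -0.06 in MONO-MAC-6, and the differences were -1.34, -0.62, -1.46 and 0.62 (limma adjusted p = 0.0121, 0.0158, 0.000315 and 0.0153). The difference for RHOXF2B held in all 14 alternatives, those for C12orf57 in 12, DDIT4 in 10 and NEUROG3 in 9. For DDIT4 it was lost with median-ratio scaling (adjusted p = 0.257). For LYZ, FCGRT, XBP1, HSH2D, TRAC, ZNF692 and S100A8 the difference did not pass. For LYZ it was -0.11 with an SE of 0.11 (limma adjusted p = 0.531), for FCGRT -0.27 with an SE of 0.10 (limma adjusted p = 0.211), and for XBP1 -0.28 with an SE of 0.10 (limma adjusted p = 0.173). For HSH2D it was -0.22 with an SE of 0.17 (limma adjusted p = 0.459), and for S100A8 -0.86 with an SE of 0.21 (limma adjusted p = 0.0581). A p that misses the threshold does not show that the lines responded alike.

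**Figure D5:**
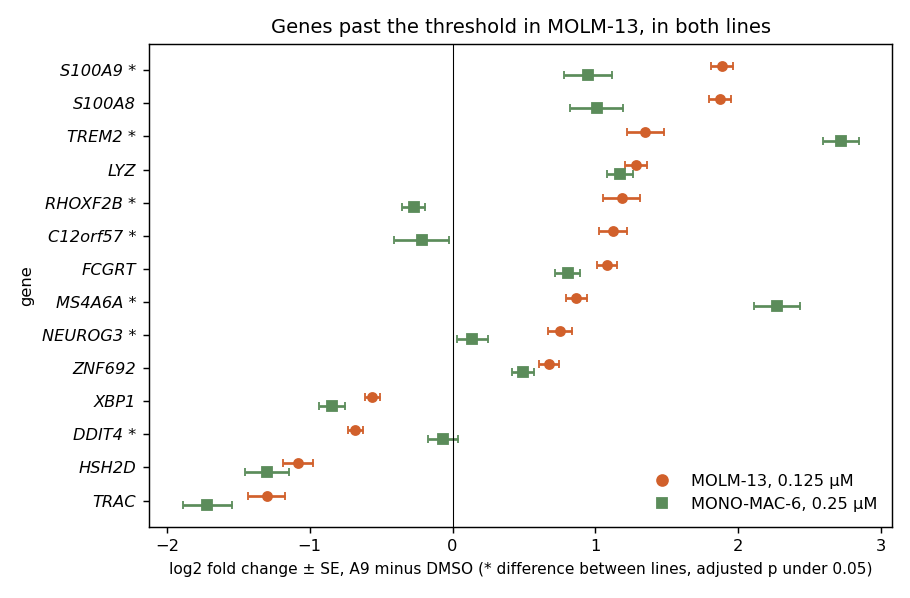
Log2 fold change of A9 minus DMSO ± SE for the 14 genes called in MOLM-13, in MOLM-13 (orange circles, 0.125 µM) and MONO-MAC-6 (green squares, 0.25 µM), with 3 samples per group. Asterisks mark the 7 genes whose difference between the lines passed an adjusted p of 0.05, with TREM2 and MS4A6A further right in MONO-MAC-6 and RHOXF2B and C12orf57 left of 0 there.

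Of the 20 further genes named above, 7 differed between the lines. They too were picked by their MOLM-13 values, so this count has the same limit. NCF1 had a log2 fold change of -0.57 in MOLM-13 and of 1.41 in MONO-MAC-6, where its mean went from 128 to 341 TPM, a difference of 1.98 (limma adjusted p = 2.29e-05) that passed in all 14 alternatives. GAS6, MT1F, NKG7, PLD4 and SPNS3 were higher with A9 in MOLM-13 and had log2 fold changes from -0.58 to -0.23 in MONO-MAC-6.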

How the data were processed

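The deposited values were TPM, the abundance of a transcript per unit of its length on a common total, for 207175 Ensembl transcripts in 36 libraries, 18 of them from MOLM-13. Per the labels' protocols, poly(A) RNA was sequenced as paired 150-base reads. The submitters' processing notes name kallisto, limma and GRCh38, without versions or roles. TPM keep no depth, so no counting error can be given.

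Transcripts were matched by identifier to GENCODE 29, a release chosen here: 162561 matched (78.5%), holding 89.9% to 90.0% of TPM in each MOLM-13 library. They were summed to 35490 genes, and 3 libraries that share the first number in the labels were averaged to 1 sample, giving 3 samples per group. limma 3.58.1 (R 4.3.3, with trend and robust options) was run on log2(TPM + 1) over the genes whose mean reached 1 TPM in either group, with Benjamini-Hochberg adjustment and a threshold of 0.05. With 3 samples per group, the smallest p of an exact permutation test is 0.1. Transcript shares were tested as log2 odds, and the difference between lines in 1 fit of 12 samples. The scripts were tested on simulated data.

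Named were all called protein-coding genes, then the 10 higher and 10 lower with the lowest p among protein-coding genes of at least 5 TPM with groups that did not overlap, and in each list the 2 members with the lowest p in each direction. Other list members are given to show where a list is low or goes the other way. The comparison and the 26 pathway and 7 marker lists were chosen with earlier results of these data known. Alternatives changed the pseudocount, filter, threshold, libraries, scaling and model, took out the trend of every sample against length or against GC content, or added as a covariate each sample's score on the main axis of variation among the MONO-MAC-6 DMSO samples.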

Additional observations from a re-analysis of the deposited data

Results flagged for a closer look

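For 14 of the named genes limma's interaction test found unequal effects of A9 in the 2 lines. The difference is given as the log2 fold change in MONO-MAC-6 minus that in MOLM-13. The named genes were picked by their MOLM-13 values, a choice that favours such a difference. The difference was positive for TREM2, at 1.37 (adjusted p = 0.00113), MS4A6A, at 1.40 (adjusted p = 0.00153), NCF1, at 1.98 (adjusted p = 2.29e-05), and DDIT4, at 0.62 (adjusted p = 0.0153). It was negative for S100A9, at -0.94 (adjusted p = 0.0296), C12orf57, at -1.34 (adjusted p = 0.0121), NEUROG3, at -0.62 (adjusted p = 0.0158), and RHOXF2B, at -1.46 (adjusted p = 0.000315). Of the genes that did not pass the threshold in MOLM-13, it was negative for NKG7, at -0.77 (adjusted p = 0.00137), MNDA, at -0.67 (adjusted p = 0.0227), PLD4, at -0.88 (adjusted p = 0.0111), SPNS3, at -0.99 (adjusted p = 0.000335), GAS6, at -0.95 (adjusted p = 0.00062), and MT1F, at -1.17 (adjusted p = 0.00515). Over 14 alternatives the difference passed in 3 for S100A9, 9 for MNDA and NEUROG3, 10 for DDIT4, 12 for C12orf57 and PLD4, and all 14 for the other 8. None of these alternatives changed the pseudocount. The dose of A9 differed with the line, so the lines and the doses cannot be told apart.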

How the results depend on the processing

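The count of 14 called genes (10 higher, 4 lower) depended on the setting. It was 4 with no filter on low values, 4 at a threshold of 0.01, and 7 and 8 with only the libraries of second number 2 and 3. It was 48 with median-ratio scaling (35 higher, 13 lower, 10 shared with the 14), 181 with the length trend removed (112 higher, 69 lower, all 14 shared), 59 with the GC trend removed (35 higher, 24 lower, 12 shared) and 992 with the axis score as covariate (642 higher, 350 lower, all 14 shared). Averaging libraries by the second number, which puts libraries of different first numbers together, gave 5439 (1879 higher, 3560 lower, so mostly lower), and each library as its own sample 1741 (932 higher, 809 lower). The causes of these shifts were not tested. It was 14 with a pseudocount of 0.1 TPM, 11 from 5 TPM, 11 with only second number 1, 20 with protein-coding genes alone, and 12 without trend and robust options. Leaving out 1 sample gave 2 to 8 genes, 0 to 2 transcripts (4 with all samples) and 198 to 543 genes that differed between the lines (401 with all samples). The lowest, 2 genes, came without A9 sample 1 or 2, 3 came without DMSO sample 1 or 2, 4 without DMSO sample 3, and 8 without A9 sample 3. Under these settings each of the 14 called genes and of the 20 genes named next kept the direction of its MOLM-13 change. Other list members were not followed one by one. With median-ratio scaling C12orf57 and ZNF692 missed the threshold (adjusted p = 0.0684 and 0.1004), as did the transcripts, of which 0 were called, and the difference between lines for GLIPR2 turned from 0.07 to -0.15 (adjusted p = 0.544). With the GC trend removed XBP1 and ZNF692 missed it (adjusted p = 0.0974 and 0.0566), and without trend and robust options XBP1, DDIT4, NEUROG3 and ZNF692 did (adjusted p from 0.0538 to 0.0813). No transcript share passed in any setting. Depth is unknown and limits low genes such as TREM2 and RHOXF2B in a way that cannot be stated.

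With the first number as a replicate block 87 genes (all 14 among them), 2 transcripts, 0 shares and 207 genes that differed between the lines were called. Deviations from the group mean correlated by 0.361, -0.077 and 0.676 between samples of the same number, and A9 sample 2 correlated best with DMSO sample 1 (0.631). In most samples these deviations also go with transcript length, so they cannot decide whether the numbers pair the samples.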

Other observations

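Ranked by fold change alone among protein-coding genes of at least 5 TPM, genes chosen after their values were seen, the highest value after PRTN3, S100A9, S100A8, LSM2 and LYZ was that of CCR2, the receptor that brings monocytes out of the bone marrow. CCR2 had 9.92, 7.92 and 6.66 TPM with DMSO and 21.7, 23.5 and 17.05 TPM with A9, with no overlap between the groups (log2 fold change 1.25, limma adjusted p = 0.086). At the other end, PLXNC1, a semaphorin receptor of leukocytes, had 15.8, 12.1 and 10.4 TPM with DMSO and 6.51, 6.48 and 5.04 TPM with A9. Some genes at that end did not separate the groups. EIF3I, a translation initiation factor subunit, had 69.6, 48.2 and 47.5 TPM with DMSO and 46.2, 57.1 and 4.16 TPM with A9, so that its log2 fold change of -1.19 came with A9 sample 3 far below the other samples. UHRF1, a factor that maintains DNA methylation, had 56.6, 23.1 and 14.5 TPM with DMSO and 18.5, 31.2 and 3.01 TPM with A9, again lowest in A9 sample 3. PTPRC, the leukocyte antigen CD45 and one of the markers of the labelled type, had 33.5, 21.2 and 14.4 TPM with DMSO and 14.8, 18.02 and 4.42 TPM with A9, with overlapping groups.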
